A study of Homo sapiens with 6 samples.

Results

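HER2R and CEAR are 2 cultured lines of human gastric tumour cells labelled resistant to different T cell bispecific antibodies, and the comparison here sets the transcriptome of one directly against that of the other. All 4 of their libraries enter it, out of 6 in the study. The remaining 2 come from MKN45, an established line of gastric cancer cells with the label sensitive. They serve as the reference that tells which line moved. For HER2R that antibody is the HER2-directed one, for CEAR the CEACAM5-directed one. The labels give MKN45-HER2 as the source of HER2R and MKN45-CEAR as the source of CEAR, and they call the cultures MKN45 and its derivatives. Whether MKN45-HER2 carries an added HER2 gene, whether either line is a single clone, and whether it was kept under antibody or T cells before harvest is not stated. No treatment is listed for any group, and all grew in the same serum medium. Each line has libraries numbered 1 and 2, and nothing says that these were separate cultures. The p-values therefore measure the spread between these libraries, which may be technical.

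A T cell bispecific antibody bridges an antigen on a tumour cell and the CD3 complex of the T cell receptor. A T cell of any specificity is thereby brought to the target and kills it with perforin, granzymes and cytokines. The tumour cell has to display the antigen, and in its response to the attack interferon-gamma signalling, through its receptor and the kinases JAK1 and JAK2, has a known part. HER2, encoded by ERBB2, is a receptor tyrosine kinase. CEACAM5, the carcinoembryonic antigen, is a heavily glycosylated protein held in the epithelial membrane by a glycosylphosphatidylinositol (GPI) anchor.

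Levels are in CPM (counts scaled for library depth and composition), and a difference is the fitted log2 value of HER2R minus CEAR, so that positive means higher in HER2R. A gene was called at an edgeR adjusted p under 0.05. Of 14958 tested genes, 2105 were called, which is 14.1%, with 1095 (7.32%) higher in HER2R and 1010 (6.75%) lower. Of these, 646 higher and 467 lower differed by more than 2-fold, and 319 and 135 by more than 4-fold. With the library number as a term in the fit, called the block below, 5717 genes were called (38.2%, 2942 higher and 2775 lower), and all 2105 were among them. The libraries of HER2R and CEAR did not overlap for any of the 2105, but they did not overlap for 61.4% of all tested genes either. The calls rest on few libraries. In the leave-one-out fits, each made without 1 of the 6 libraries, 193 genes were called when HER2R library 1 was left out and 102 when HER2R library 2 was. Omitting CEAR library 1 left 525 and omitting CEAR library 2 left 360, while dropping MKN45 library 1 or 2 left 1810 or 1856. The number called in all 6 was 89 of the 2105 (4.23%).

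Total counts per library ran from 39657353 to 43554345 in the compared lines, and 1 count was worth 0.0177 to 0.0255 CPM. Libraries of HER2R and CEAR differed from each other by more than 2-fold at 2520 to 3003 genes, against 1077 between the HER2R libraries and 1483 between the CEAR libraries. The first principal component, with 38.7% of the variance, placed HER2R at one end, CEAR at the other and MKN45 between them. Epithelial markers summed to 12041 and 15828 CPM in HER2R, 8387 and 10275 CPM in CEAR and 10708 and 13256 CPM in MKN45, with 1 of 9 called (EPCAM, log2 difference 0.79, edgeR adjusted p = 0.0327). None of the 12 lymphoid or 4 endothelial markers was high enough to be tested, CD3D and CD2 had 0 counts in every library, and the lymphoid sum stayed at or below 0.478 CPM. Of 7 fibroblast markers 1 was tested and not called (COL1A1, log2 difference 1.98, edgeR adjusted p = 0.0638), though the block called it higher in HER2R. The sum of the 7 was 7.67 and 3.55 CPM in HER2R against 1.81 and 1.15 in CEAR and 1.88 and 0.978 in MKN45. Of 7 myeloid markers 2 were tested and 1 was lower in HER2R. That 1 was the lysozyme gene LYZ, which gastric epithelium also makes, at 362 and 399.9 CPM in HER2R, 827 and 1192 in CEAR and 905 and 1129 in MKN45. Of 5 neuroendocrine markers 3 were tested and 1 was lower in HER2R (INSM1, log2 difference −2.01, edgeR adjusted p = 0.0219). The part of the fibroblast and neuroendocrine genes in the results was not tested. In leave-one-out fits the EPCAM call ended with any 1 HER2R or CEAR library left out, the LYZ call with either HER2R library or CEAR library 2 left out, and the INSM1 call with HER2R library 2 or either CEAR library left out. The highest edgeR adjusted p of each was 0.0939 to 0.168, and INSM1 ran from −2.65 to −1.57 on the log2 scale.

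The antigens separated the lines on one side only. The CEACAM5 gene (chromosome 19, 41708585 to 41729798) had 1036 and 2289 CPM in HER2R, 2.34 and 15.9 in CEAR and 1007 and 2441 in MKN45. HER2R was at the MKN45 level and CEAR far below it in both libraries, and in each line library 2 was the higher one. CEACAM5 differed by 7.51 (SE 1.08, edgeR adjusted p = 0.0125), with an edgeR adjusted p of 1.62e-05 under the block. The difference ranged from 6.70 to 9.47 over the leave-one-out fits, and the call ended with either HER2R library left out (edgeR adjusted p 0.0703 at most). CEACAM6, the neighbouring family member (chromosome 19, 41750977 to 41772208), had 8.23 and 37.5 CPM in HER2R, 8.7 and 58.2 in CEAR and 801 and 1325 in MKN45. It was low in both resistant lines beside MKN45, their libraries overlapped, and the lines did not differ by the test (log2 difference −0.55, SE 0.941, edgeR adjusted p = 0.728). Its sign turned without HER2R library 1 or CEAR library 2, over a range of −2.02 to 1.39. Of 6 tested members of the antigen and CEACAM list, 1 was called (16.7%, near the 14.1% of all tested genes), at a list median of 0.02. Reads of CEACAM genes can be shared between near-identical members, and how the authors' counting split them is not given in the sources used here. ERBB2 itself had 88.2 and 78.8 CPM in HER2R, 75.6 and 109 in CEAR and 103 and 126 in MKN45. The ranges of the lines overlapped, and ERBB2 was not called (log2 difference −0.15, SE 0.205, edgeR adjusted p = 0.662).

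The 250 bases upstream of the RefSeq start (GRCh38.p14, plus strand, 5′ to 3′, CG dinucleotides in capitals) are shown for CEACAM5 and CEACAM6, which were both low in CEAR and far apart in HER2R, and for FUT9 and PRKAA2, which lay on opposite sides of MKN45 in the lines.
CEACAM5, chr19:41708376-41708625: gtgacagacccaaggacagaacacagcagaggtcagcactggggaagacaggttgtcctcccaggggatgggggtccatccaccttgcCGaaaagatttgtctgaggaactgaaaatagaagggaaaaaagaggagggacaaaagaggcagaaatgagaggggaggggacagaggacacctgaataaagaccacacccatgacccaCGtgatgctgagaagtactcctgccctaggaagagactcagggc
CEACAM6, chr19:41755280-41755529: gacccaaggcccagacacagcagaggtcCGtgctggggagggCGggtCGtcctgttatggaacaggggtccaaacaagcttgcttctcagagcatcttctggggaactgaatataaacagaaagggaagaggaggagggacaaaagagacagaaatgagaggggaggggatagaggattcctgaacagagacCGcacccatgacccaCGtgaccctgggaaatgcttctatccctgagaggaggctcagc
FUT9, chr6:96015724-96015973: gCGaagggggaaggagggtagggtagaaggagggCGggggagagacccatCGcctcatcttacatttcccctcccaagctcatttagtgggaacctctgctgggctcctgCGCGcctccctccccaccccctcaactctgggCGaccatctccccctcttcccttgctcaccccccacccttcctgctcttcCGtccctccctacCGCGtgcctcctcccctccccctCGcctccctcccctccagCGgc
PRKAA2, chr1:56645064-56645313: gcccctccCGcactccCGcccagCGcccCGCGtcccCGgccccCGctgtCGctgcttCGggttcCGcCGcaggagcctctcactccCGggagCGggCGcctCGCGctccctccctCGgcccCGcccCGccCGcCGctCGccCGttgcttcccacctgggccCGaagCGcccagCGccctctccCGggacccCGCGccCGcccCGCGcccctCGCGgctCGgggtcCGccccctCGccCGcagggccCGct
The CEACAM5 window held 2 CG dinucleotides, the CEACAM6 window 5, FUT9 11 and PRKAA2 39. The median of 10313 tested genes with a window was 23, where a gene with several windows counted by the one richest in CG. The windows of CEACAM5, CEACAM6 and FUT9 were thus poorer in CG than the median and that of PRKAA2 richer. On either strand, the TATA motif TATAAA was found once in CEACAM6 and in none of the others, and it occurs in 10.7% of all 35116 windows of this length. The GC box GGGCGG was found in CEACAM6 once, in FUT9 once and in PRKAA2 5 times, and in 42.6% of all windows. CCAAT was in none of the 4 and in 32.0% of all windows. Methylation and factor binding were not analysed here.

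Interferon receptors and the JAK-STAT pathway held few calls, 7.69% of tested members against 14.1% of all tested genes. IFNGR1, the ligand-binding receptor chain, had 14.1 and 12.4 CPM in HER2R, 20.5 and 22.7 in CEAR and 17.4 and 19.8 in MKN45 and was lower in HER2R (log2 difference −0.70, SE 0.173, edgeR adjusted p = 0.0449). That call ended with any of the 6 libraries left out (edgeR adjusted p 0.214 at most). IFNGR2, the second chain, had 50.3 and 63.7 CPM in HER2R, 47.1 and 41 in CEAR and 115 and 90.1 in MKN45 and was not called (log2 difference 0.37, edgeR adjusted p = 0.223). JAK1 (log2 difference 0.31, edgeR adjusted p = 0.257) and JAK2 (log2 difference −0.49, edgeR adjusted p = 0.203) were not called either. Across interferon receptors and the JAK-STAT pathway, 0 of 26 tested members were higher in HER2R and 2 lower (5 and 3 with the block, 0 to 2 calls in the leave-one-out fits), with a median of 0.12. The other called member was PTPN1, a phosphatase that dephosphorylates JAK kinases, lower in HER2R (log2 difference −0.66, edgeR adjusted p = 0.0287). Of the interferon-gamma induced genes, which went both ways, 3 of 29 tested members were higher in HER2R and 2 lower, with a median of 0.44. The block gave 12 and 4, and the leave-one-out fits 1 to 5 calls. The 17.2% called was near the 14.1% of all tested genes. The adhesion molecule ICAM1 had 10.9 and 14.2 CPM in HER2R, 1.18 and 1.84 in CEAR and 0.585 and 0.409 in MKN45, so that HER2R stood above both other lines (log2 difference 3.04, edgeR adjusted p = 0.00649). The apolipoprotein L genes APOL1 (log2 difference 1.55, edgeR adjusted p = 0.0312) and APOL2 (log2 difference 0.79, edgeR adjusted p = 0.0221) were higher in HER2R as well. The transcription factor IRF8 went the other way, with 9.04 and 11.1 CPM in HER2R, 86.5 and 103 in CEAR and 19.1 and 20.7 in MKN45, high in CEAR and low in HER2R on either side of MKN45 (log2 difference −3.23, SE 0.179, edgeR adjusted p = 0.000961). WARS, a tryptophan tRNA synthetase induced by interferon-gamma, was also lower in HER2R. WARS had 51.8 and 55.6 CPM in HER2R, 109 and 112 in CEAR and 136 and 120.016 in MKN45, a difference of −1.04 (edgeR adjusted p = 0.00873). The IRF8 call held in all 6 leave-one-out fits. Those of PTPN1, APOL1 and APOL2 ended with any 1 HER2R or CEAR library left out, that of WARS with either HER2R library left out and that of ICAM1 without HER2R library 2, with a highest edgeR adjusted p of 0.0578 to 0.153.

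The edgeR fit called the class I heavy chain genes HLA-B and HLA-C with the block and not without it. HLA-B had 21.3 and 44.1 CPM in HER2R, 9.9 and 17.1 in CEAR and 38.4 and 115 in MKN45. CEAR was the lowest line for each library number, but library 2 exceeded library 1 in every line, and HLA-B was not called (log2 difference 1.28, SE 0.589, edgeR adjusted p = 0.192). The block brought its adjusted p to 0.00156. HLA-C had 52.4 and 83 CPM in HER2R, 34.3 and 48.1 in CEAR and 87.2 and 181 in MKN45, in the same order (log2 difference 0.72, edgeR adjusted p = 0.259, and 0.00594 with the block). IRF1, a transcription factor of MHC class I genes, had 15.1 and 19.2 CPM in HER2R, 8.17 and 11.4 in CEAR and 25.2 and 18 in MKN45 (log2 difference 0.80, edgeR adjusted p = 0.0932, and 0.0269 with the block). B2M, the invariant class I light chain, was not called in either fit (log2 difference 0.19, edgeR adjusted p = 0.675). The near-identical HLA genes can share reads. Of the class I presentation list, 2 of 29 tested members were higher in HER2R and 0 lower (11 and 1 with the block, 0 to 2 calls in the leave-one-out fits), with a median of 0.25, and the called members were the peptide-trimming enzymes of the endoplasmic reticulum. With 6.90% called, the list lay below the 14.1% of all tested genes. ERAP2 had 76.3 and 82.4 CPM in HER2R, 31.7 and 39.1 in CEAR and 44.5 and 46.3 in MKN45. It differed by 1.17 (SE 0.15, edgeR adjusted p = 0.00942). ERAP1 had 65.7 and 79.8 CPM in HER2R, 34.2 and 39.3 in CEAR and 48.8 and 68.5 in MKN45. It differed by 0.98 (SE 0.205, edgeR adjusted p = 0.0298). In ERAP2 both HER2R libraries were above the other 4, while in ERAP1 MKN45 overlapped HER2R. Both genes lie in a window of chromosome 5 (90 to 100 Mb) whose median difference was 0.31. The ERAP2 call ended with either HER2R library left out and the ERAP1 call with any 1 HER2R or CEAR library left out (highest edgeR adjusted p 0.0772 and 0.151).

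Type I interferon stimulated genes were higher in HER2R than in CEAR where called. Of the list 7 of 35 tested members were higher in HER2R and 0 lower (18 and 0 with the block, 0 to 7 calls in the leave-one-out fits), with a median of 0.67. The list's median lay at −0.28 for HER2R minus MKN45 and at −0.79 for CEAR minus MKN45, 2 comparisons that share the MKN45 libraries. The oligoadenylate synthetase OAS2 had 21 and 22.6 CPM in HER2R, 5.95 and 5.75 in CEAR and 10.7 and 5.68 in MKN45 and stood higher in HER2R than in either other line (log2 difference 1.90, SE 0.311, edgeR adjusted p = 0.0171). The RNA helicase-like DDX60 had 5.78 and 6.43 CPM in HER2R, 1.06 and 2.52 in CEAR and 8.01 and 8.82 in MKN45 and stood low in CEAR only (log2 difference 1.76, edgeR adjusted p = 0.033). SAMD9 had 8.36 and 19.7 CPM in HER2R, 0.626 and 2.67 in CEAR and 3.28 and 5.43 in MKN45, a difference of 3.07 (edgeR adjusted p = 0.0342). Its paralogue SAMD9L had 0.357 and 0.357 CPM in HER2R, 0.0482 and 0.0225 in CEAR and 1.01 and 0.705 in MKN45, close to the floor in CEAR. From 3 counts there, SAMD9L was 10.2-fold higher (95% counting interval 3.16 to 52.6) in HER2R. Each of these 4 calls ended in 3 or 4 leave-one-out fits, among them those with either HER2R library or CEAR library 1 left out, with a highest edgeR adjusted p of 0.102 to 0.25. Over the leave-one-out fits SAMD9 ran from 2.32 to 4.48 and DDX60 from 1.27 to 2.52 on the log2 scale.

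Among checkpoint ligands and immune-suppressive enzymes, 4 of 18 tested members were higher in HER2R and 0 lower (9 and 1 with the block, 0 to 5 calls in the leave-one-out fits), with a median of 0.68. The 22.2% called in this list stands beside 14.1% of all tested genes. NT5E, the ectoenzyme CD73 that makes adenosine, had 106 and 132 CPM in HER2R, 47 and 37 in CEAR and 65.7 and 62 in MKN45. It differed by 1.503 (SE 0.176, edgeR adjusted p = 0.00751). PTGS2, the inducible cyclooxygenase, had 193 and 228 CPM in HER2R, 35.5 and 80.4 in CEAR and 40.3 and 32.5 in MKN45. It differed by 1.86 (SE 0.366, edgeR adjusted p = 0.0266). In both genes the HER2R libraries were the highest of the 6. The arginase gene ARG2 (log2 difference 1.63, edgeR adjusted p = 0.0358) and the growth factor gene TGFB2 (log2 difference 3.91, edgeR adjusted p = 0.0146) were also higher in HER2R. The PD-L1 gene CD274 had 0.357 and 0.969 CPM in HER2R, 0.193 and 0.135 in CEAR and 0.124 and 0.182 in MKN45. It was called by edgeR with the block (edgeR adjusted p = 0.0274) and not without it (log2 difference 2.01, edgeR adjusted p = 0.111). Of T cell adhesion, costimulation and NK ligands 3 of 16 tested members were higher in HER2R and 1 lower (8 and 2 with the block, 0 to 4 calls in the leave-one-out fits), with a median of 0.53. Here 25.0% were called. The costimulatory ligands TNFSF9 (4-1BB ligand) and CD70 were higher in HER2R than in CEAR, with MKN45 near HER2R. TNFSF9 had 22.5 and 11.3 CPM in HER2R, 2.26 and 1.28 in CEAR and 20.8 and 8.8 in MKN45, a difference of 3.26 (edgeR adjusted p = 0.0217). CD70 had 32.6 and 13.6 CPM in HER2R, 4.43 and 2.29 in CEAR and 21.8 and 10.1 in MKN45, a difference of 2.78 (edgeR adjusted p = 0.0309). CD40 was the member lower in HER2R (log2 difference −1.77, edgeR adjusted p = 0.0321). The NT5E call ended without HER2R library 2 and the PTGS2 call with either HER2R library left out. Those of ARG2, TNFSF9, CD70 and CD40 ended with any 1 HER2R or CEAR library left out, and that of TGFB2 with either HER2R library or CEAR library 2 left out. Their highest edgeR adjusted p was 0.0625 to 0.166. On the log2 scale PTGS2 ran from 1.39 to 2.57 over these fits, TGFB2 from 3.19 to 5.26, TNFSF9 from 2.67 to 3.72 and CD70 from 2.01 to 3.33.

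**Figure D1:**
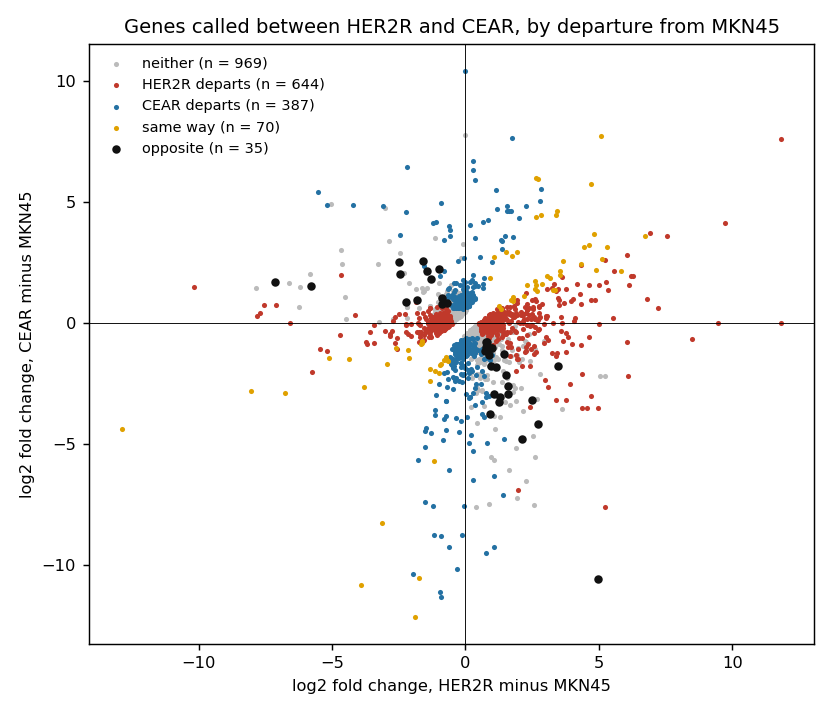
Each point is 1 of the 2105 genes called between HER2R and CEAR, placed by its fitted log2 fold change in HER2R against MKN45 (x axis) and in CEAR against MKN45 (y axis), and coloured by which line passed the test against MKN45. Both axes use the same MKN45 libraries. Colours mark the 644 genes where HER2R alone passed against MKN45 and the 387 where CEAR alone did, whatever their distance from an axis. The line that did not pass may still lie away from MKN45. The 35 black points lie in the quadrants of opposite sign.

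The 2105 were sorted by the tests against MKN45 in the fit to all 6 libraries. In 644 genes HER2R alone passed against MKN45 (370 higher and 274 lower than CEAR), and in 387 CEAR alone did (216 and 171). Such a line is said to depart alone, though the other line may also lie away from MKN45 without passing. In 35 the lines left MKN45 in opposite directions (22 and 13), in 70 both moved the same way but by different amounts (44 and 26), and in 969 neither line passed against MKN45 (443 and 526). HER2R was thus the line that departed alone more often, but this order turned with either HER2R library left out. Without HER2R library 1, HER2R alone departed in 60 genes and CEAR alone in 80, and without HER2R library 2 in 32 and 43. Against MKN45 itself, 9.74% of tested genes were called in HER2R (4.85% lower) and 6.19% in CEAR (3.62% lower), and the 3 comparisons share libraries. The block gave 2233, 1434, 314, 506 and 1230 genes in the same order. Under it 543 of the 644, 297 of the 387, all 35, all 70 and 92 of the 969 kept their group. Level alone was taken as the log2 of mean CPM plus 0.1, which shortens distances near the floor. By it HER2R lay farther from MKN45 by 1 log2 unit or more in 334 called genes and CEAR in 265. The distances were within 1 unit in 1506. MKN45 lay between the lines in 1443 and outside them in 662. The plot of both departures shows 2 arms along the axes, with few genes far out in the opposite-sign corners. Its colours follow the tests and not the arms.

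In the opposite group, PRKAA2, FUT9, HLA-DMB and ALDH1A2 had the same standing in all 6 leave-one-out fits. ALDH1A2 (chromosome 15, 57953424 to 58497866), a dehydrogenase that makes retinoic acid, had 115 and 155 CPM in HER2R, 0 and 0 in CEAR and 4.34 and 4.3 in MKN45. No count was seen in either CEAR library, where 245 and 189 were counted in MKN45 and 4506 and 6058 in HER2R. Against a floor of 3 counts over the CEAR libraries, HER2R was at least 3860-fold higher than CEAR (edgeR adjusted p = 0.000801). FUT9 (chromosome 6, 96015984 to 96215612), the fucosyltransferase that builds the Lewis x epitope, had 0.306 and 0.281 CPM in HER2R, 47 and 46.8 in CEAR and 16.6 and 16.3 in MKN45. The 6 libraries fell into 3 tight pairs, with CEAR highest and HER2R lowest (log2 difference −7.31, SE 0.224, edgeR adjusted p = 0.000192). Its distance from MKN45 was −5.79 in HER2R (edgeR adjusted p = 0.000754) and 1.51 in CEAR (edgeR adjusted p = 0.0056). PRKAA2 (chromosome 1, 56645322 to 56715335), a catalytic subunit of the energy sensor AMPK, showed the mirror image, with 58.2 and 56.1 CPM in HER2R, 0.41 and 0.517 in CEAR and 13.7 and 12.3 in MKN45. It differed by 6.93 (SE 0.222, edgeR adjusted p = 0.000192). Its distance from MKN45 was 2.13 in HER2R (edgeR adjusted p = 0.00222) and −4.80 in CEAR (edgeR adjusted p = 0.000871). HLA-DMB (chromosome 6, 32934629 to 32941070), which encodes a chain of the HLA-DM complex that loads peptides on MHC class II, had 28.7 and 45.5 CPM in HER2R, 0.241 and 0.382 in CEAR and 6.13 and 5.14 in MKN45. It differed by 6.87 (SE 0.4, edgeR adjusted p = 0.0012). It was high in HER2R and nearly lost in CEAR. Of the other 4 tested members of the class II list none was called without the block, and the list median was 0.50. With the block 3 of the 5 tested members were higher in HER2R and 1 lower. The class II transactivator CIITA had 0 to 2 counts per library. HLA-DMA, the partner chain, had 13.7 and 21.1 CPM in HER2R, 1.66 and 5.68 in CEAR and 2.16 and 4.71 in MKN45, and was not called (log2 difference 2.23, edgeR adjusted p = 0.0544).

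FGF2 (chromosome 4, 122826708 to 122898236), basic fibroblast growth factor, had 41 and 67.5 CPM in HER2R, 1.18 and 1.64 in CEAR and 3.91 and 5.93 in MKN45. It differed by 5.26 (SE 0.386, edgeR adjusted p = 0.00229). An antisense gene overlaps it, and whether the counting kept strands apart is not given. NRP2 (chromosome 2, 205681990 to 205798133), a co-receptor for semaphorins and VEGF-C, had 15.1 and 12.5 CPM in HER2R, 0.385 and 0.157 in CEAR and 2.11 and 2.87 in MKN45, a difference of 5.67 (edgeR adjusted p = 0.00229). SOX2 (chromosome 3, 181711924 to 181714436), a transcription factor of the foregut and of stem cells, had 26.3 and 24.5 CPM in HER2R, 1.76 and 0.742 in CEAR and 9.99 and 10.6 in MKN45, a difference of 4.36 (edgeR adjusted p = 0.00292). All 3 were highest in HER2R and lowest in CEAR with no overlap. ELOVL5 (chromosome 6, 53267398 to 53349179), an elongase of polyunsaturated fatty acids, had 197 and 157 CPM in HER2R, 7.03 and 6.65 in CEAR and 112 and 74.3 in MKN45 (log2 difference 4.69, edgeR adjusted p = 0.000961), and here the larger step was the fall in CEAR. ADD2 (chromosome 2, 70607618 to 70768225), a cytoskeletal adducin, had 10.8 and 11.3 CPM in HER2R, 0.506 and 0.449 in CEAR and 5.44 and 3.71 in MKN45, a difference of 4.53 (edgeR adjusted p = 0.00239). CEAR was the high line for the next 3 genes. SUCNR1 (chromosome 3, 151873643 to 151884619), the succinate receptor, had 0.586 and 2.04 CPM in HER2R, 33.1 and 52.9 in CEAR and 7.83 and 7.09 in MKN45, a difference of −5.03 (edgeR adjusted p = 0.00551). SLCO2A1 (chromosome 3, 133928145 to 134052184), a prostaglandin transporter, had 0.739 and 0.969 CPM in HER2R, 18.7 and 19.6 in CEAR and 5.44 and 3.8 in MKN45, a difference of −4.48 (edgeR adjusted p = 0.00192). In both, HER2R lay below MKN45. CAPN6 (chromosome X, 111245103 to 111270523), a calpain family member, had 0.051 and 0 CPM in HER2R, 12.5 and 13.5 in CEAR and 4.41 and 3.52 in MKN45. From 2 counts in HER2R, CAPN6 was 509-fold lower (95% counting interval 141 to 4208) in HER2R (edgeR adjusted p = 0.000801). The calls between HER2R and CEAR held in all 6 leave-one-out fits for these 12 genes, with edgeR adjusted p of 0.0339 or less. The difference moved by more than 1.5-fold in NRP2 and SOX2 without CEAR library 1, and in SUCNR1 and CAPN6 with either HER2R library left out. Over the leave-one-out fits NRP2 ran from 5.15 to 6.42, SOX2 from 3.85 to 5.09, SUCNR1 from −6.19 to −4.40 and CAPN6 from −12.19 to −7.91. The tests against MKN45 did lose calls, and the number of genes in the opposite group ranged from 5 to 16 over these fits. FGF2 and ADD2 were opposite in 0 of the 6 fits, with HER2R alone departing in FGF2 and CEAR alone in ADD2. ELOVL5 was opposite in 1 fit, CAPN6, NRP2, SUCNR1 and SOX2 in 2 each and SLCO2A1 in 4. Of the opposite genes named elsewhere in the text, IRF8 and EMP1 were opposite in 2 fits and GCNT1 in 3.

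**Figure D2:**
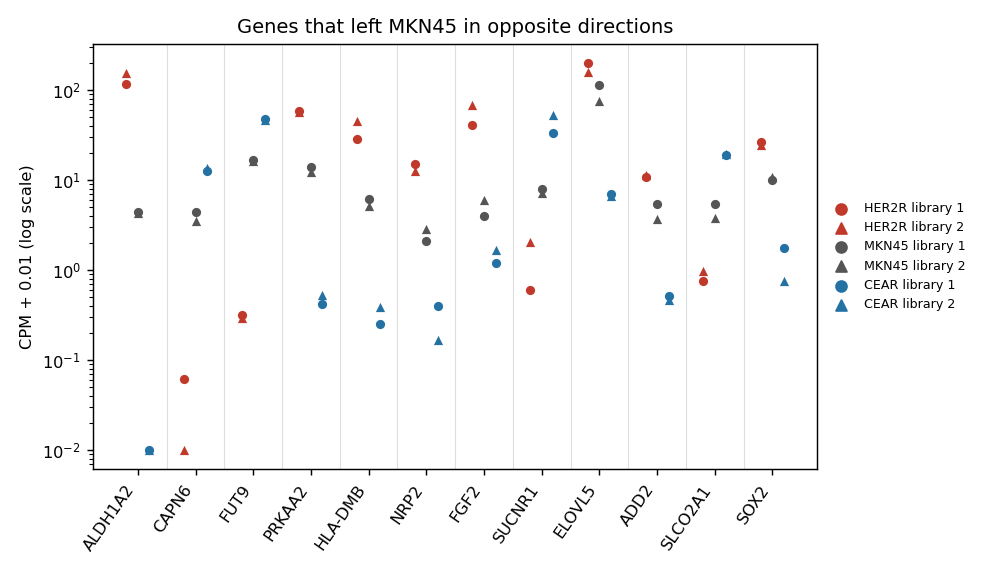
Levels of the 12 named genes that left MKN45 in opposite directions, as CPM plus 0.01 on a log axis, for every library (red HER2R, grey MKN45, blue CEAR; circles library 1, triangles library 2). In each gene the MKN45 points lie between those of the resistant lines, from 115 and 155 CPM against 0 in ALDH1A2 to 197 and 157 CPM against 7.03 and 6.65 in ELOVL5.

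The genes in which HER2R alone departed include several that were near absent elsewhere. NOG, which encodes the secreted BMP antagonist noggin, had 34.6 and 22.9 CPM in HER2R, 0.313 and 0.27 in CEAR and 0.124 and 0.273 in MKN45. It differed by 6.61 (SE 0.405, edgeR adjusted p = 0.00136). HER2R stood alone at this level. PALMD, the palmdelphin gene, had 13.5 and 10.5 CPM in HER2R, 0.0482 and 0.157 in CEAR and 0.159 and 0.205 in MKN45, a difference of 6.81 (edgeR adjusted p = 0.00141). ARSJ, a member of the arylsulfatase family, had 16.3 and 17.5 CPM in HER2R, 0.12 and 0.472 in CEAR and 0.124 and 0.182 in MKN45, a difference of 5.79 (edgeR adjusted p = 0.00229). The RNA-binding protein gene CELF2 had 22.9 and 15.4 CPM in HER2R, 0.0241 and 0.742 in CEAR and 0.0354 and 0 in MKN45, a difference of 5.595 (edgeR adjusted p = 0.00406). In these 4 genes both HER2R libraries stood above 10 CPM and the other 4 libraries below 1 CPM. TUSC3, which encodes a subunit of the oligosaccharyltransferase complex, had 17.8 and 23.3 CPM in HER2R, 0 and 0 in CEAR and 0.354 and 0.773 in MKN45, and with no count in CEAR the HER2R level was at least 589-fold higher (edgeR adjusted p = 0.00293). The noncoding RNA SNAR-A2, whose family has near-identical copies, had 8.64 and 12.2 CPM in HER2R, 0 and 0 in CEAR and 0 and 0 in MKN45, at least 299-fold higher than in CEAR, with a call that ended without HER2R library 2 (edgeR adjusted p 0.0624 at most). RHOBTB3 was low in HER2R, with 0.764 and 1.28 CPM in HER2R, 23.6 and 21.7 in CEAR and 17.3 and 18.9 in MKN45. It differed by −4.47 (SE 0.27, edgeR adjusted p = 0.0012). Another 5 genes were low in HER2R. RHBDL2, a rhomboid protease gene, had 0 and 0.051 CPM in HER2R, 4.43 and 11.4 in CEAR and 3.7 and 8.3 in MKN45. The mucin-like gene DPCR1 had 0 and 0.128 CPM in HER2R, 15.2 and 14.8 in CEAR and 3.37 and 14.9 in MKN45. ADRA2A, an adrenergic receptor gene, had 0.204 and 0.434 CPM in HER2R, 17.1 and 47.1 in CEAR and 4.27 and 12.1 in MKN45. In these 3, both HER2R libraries were under 1 CPM. SLC39A5, a zinc transporter gene, had 0.204 and 0.153 CPM in HER2R, 1.57 and 5.89 in CEAR and 5.83 and 10.1 in MKN45. MAGED4, which has a near-identical copy, had 0 and 0 CPM in HER2R, 6.82 and 11.2 in CEAR and 1.75 and 4.87 in MKN45. From 2 counts in HER2R, RHBDL2 was 315-fold lower (95% counting interval 86.8 to 2604) there, and MAGED4, with 0 counts in HER2R, was at least 238-fold lower. The calls of NOG, PALMD, ARSJ, CELF2, TUSC3 and RHOBTB3 held in all 6 leave-one-out fits, with HER2R alone departing in each. Those of the 5 genes from RHBDL2 to MAGED4 ended with either HER2R library left out, and that of SLC39A5 also without CEAR library 2, with a highest edgeR adjusted p of 0.0776 to 0.168. Over the same fits the log2 difference ran from 6.23 to 7.88 in PALMD, from 5.15 to 7.09 in ARSJ, from 4.68 to 9.47 in CELF2, from −12.40 to −6.85 in DPCR1, from −7.28 to −5.74 in ADRA2A and from −5.03 to −3.12 in SLC39A5.

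Where CEAR alone departed, some genes were lost from CEAR and others gained. GNB4, a G protein beta subunit, had 13.4 and 16.6 CPM in HER2R, 0.0723 and 0 in CEAR and 17.3 and 15.3 in MKN45, and from 3 counts in CEAR it was 430.1-fold higher (95% counting interval 147 to 2089) in HER2R (edgeR adjusted p = 0.000801). TRPS1, a transcriptional repressor with a GATA-type zinc finger, had 6.93 and 4.87 CPM in HER2R, 0.0241 and 0 in CEAR and 10.3 and 7.55 in MKN45, from 1 count in CEAR 508-fold higher (95% counting interval 90.6 to 20091) in HER2R. CGREF1 had 4.38 and 5.94 CPM in HER2R, 0.0241 and 0 in CEAR and 1.36 and 2.64 in MKN45, from 1 count in CEAR 444-fold higher (95% counting interval 79.2 to 17579) in HER2R. The homeobox gene NKX2-5 had 2.93 and 3.93 CPM in HER2R, 0.0241 and 0 in CEAR and 7.78 and 5.14 in MKN45, from 1 count in CEAR 295-fold higher (95% counting interval 52.5 to 11690) in HER2R. EDA2R, a receptor of the TNF receptor superfamily, had 4.94 and 2.75 CPM in HER2R, 0 and 0 in CEAR and 6.86 and 7.55 in MKN45, at least 110.4-fold higher in HER2R. The zinc finger gene ZNF347 had 3.21 and 3.26 CPM in HER2R, 0 and 0 in CEAR and 5.65 and 6.89 in MKN45, at least 92.8-fold higher. In these 6 genes HER2R kept counts in both libraries while CEAR had at most 3 counts in all. Other genes were high in CEAR and low in the other 2 lines. SERPINA1, the alpha-1 antitrypsin gene, had 1.83 and 3.39 CPM in HER2R, 118 and 199 in CEAR and 0.567 and 1.05 in MKN45. It differed by −5.92 (SE 0.433, edgeR adjusted p = 0.00229). The trypsinogen gene PRSS2 had 1.89 and 5.82 CPM in HER2R, 251 and 198 in CEAR and 2.89 and 11.8 in MKN45, a difference of −5.86 (edgeR adjusted p = 0.0111). The metallothionein gene MT1E had 0.102 and 0.128 CPM in HER2R, 4.96 and 6.2 in CEAR and 0.124 and 0.0455 in MKN45, a difference of −5.57 (edgeR adjusted p = 0.00233). PRSS2 and MT1E belong to families of near-identical genes. CCBE1, which helps process VEGF-C, had 0.331 and 0.153 CPM in HER2R, 23.6 and 9.75 in CEAR and 1.4 and 1.25 in MKN45, a difference of −6.09 (edgeR adjusted p = 0.0065). The nucleoside transporter SLC28A2 had 0 and 0.0765 CPM in HER2R, 6.12 and 13.6 in CEAR and 0.0354 and 0.728 in MKN45. The zinc finger gene ZNF883 had 0 and 0 CPM in HER2R, 5.52 and 5.86 in CEAR and 0.177 and 0.0682 in MKN45. SLC28A2, from 3 counts, was 262-fold lower (95% counting interval 89.3 to 1272) in HER2R, and ZNF883, from 0, at least 149-fold lower. The calls of GNB4, TRPS1, CGREF1, NKX2-5, EDA2R, SERPINA1, MT1E and ZNF883 held in all 6 leave-one-out fits. CEAR alone departed in each fit for these genes, except for CGREF1, where it did in 4 fits. The calls of PRSS2, CCBE1 and SLC28A2 ended with either HER2R library left out and that of ZNF347 without HER2R library 2, with a highest edgeR adjusted p of 0.0549 to 0.101. In the same fits the log2 difference of PRSS2 ran from −6.89 to −5.27 and that of CCBE1 from −6.75 to −5.32. CCBE1 kept its place among the genes in which CEAR alone departed in 0 of the 6 fits.

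Genes that moved the same way in both lines differed in how far they went. SLFN11, a Schlafen family member that acts on stalled replication forks, had 0.484 and 0.434 CPM in HER2R, 7.3 and 6.34 in CEAR and 57.1 and 42.9 in MKN45, down in both lines and farther down in HER2R (log2 difference −3.88, SE 0.293, edgeR adjusted p = 0.00233). ALDH1A1, another retinaldehyde dehydrogenase, had 0 and 0.0255 CPM in HER2R, 3.2 and 8.02 in CEAR and 76.8 and 159.6 in MKN45, and from 1 count in HER2R it was 447-fold lower (95% counting interval 79.8 to 17690) there than in CEAR. The chemokine receptor gene CCR6 had 0.153 and 0.179 CPM in HER2R, 2.39 and 1.91 in CEAR and 5.62 and 5.98 in MKN45, a difference of −3.67 (edgeR adjusted p = 0.00788). The zinc finger genes went farther down in CEAR. ZNF91 had 4.99 and 7.98 CPM in HER2R, 0 and 0.0225 in CEAR and 16.6 and 26.9 in MKN45. ZNF462 had 2.24 and 3.98 CPM in HER2R, 0 and 0.0449 in CEAR and 48.7 and 45.4 in MKN45. ZNF681 had 0.637 and 1.2 CPM in HER2R, 0.0241 and 0.0225 in CEAR and 8.02 and 7.98 in MKN45. All 3 were nearly silent in CEAR. ZNF91, from 1 count in CEAR, was 558-fold higher (95% counting interval 99.7 to 22082) in HER2R, and ZNF462, from 2 counts, 134-fold higher (95% counting interval 36.6 to 1111). ZNF681, also from 2 counts in CEAR, was 39.5-fold higher (95% counting interval 10.5 to 332). The calls of SLFN11, ZNF91 and ZNF462 held in all 6 leave-one-out fits. Both lines passed against MKN45 in all 6 for SLFN11 and ZNF462 and in 3 for ZNF91, where CEAR alone did in the rest. CCR6 had that standing in 0 fits, and where it was called HER2R alone departed. The calls of ALDH1A1 and CCR6 ended with either HER2R library left out and that of ZNF681 with HER2R library 2 or either CEAR library left out (highest edgeR adjusted p 0.0746 to 0.0939).

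Of the 969 genes where neither line passed against MKN45, 898 lay at distances from it that were within 1 log2 unit of each other. MUC5AC, the gel-forming mucin of gastric surface cells, had 0.153 and 3.32 CPM in HER2R, 99.6 and 366 in CEAR and 4.11 and 82.1 in MKN45. It differed by −7.07 (SE 1.77, edgeR adjusted p = 0.0464). NMNAT2, an enzyme of NAD synthesis, had 12.9 and 27.7 CPM in HER2R, 0.169 and 0.517 in CEAR and 0.833 and 5.62 in MKN45, a difference of 5.86 (edgeR adjusted p = 0.0219). The amino acid transporter gene SLC7A8 had 0.408 and 0.791 CPM in HER2R, 15.1 and 34.6 in CEAR and 1.31 and 5.43 in MKN45, a difference of −5.37 (edgeR adjusted p = 0.0156). CEAR was the high line in MUC5AC and SLC7A8 and the low line in NMNAT2. QPCT, a glutaminyl cyclase, had 9.3 and 32.7 CPM in HER2R, 0.361 and 1.44 in CEAR and 3.06 and 8.78 in MKN45, a difference of 4.52 (edgeR adjusted p = 0.0287). KRT15 had 2.96 and 8.26 CPM in HER2R, 0.361 and 0.427 in CEAR and 1.33 and 2.5 in MKN45, a difference of 3.82 (edgeR adjusted p = 0.0231). In all 5 genes library 2 was above library 1 in all 3 lines. None of the 969 was among the 89 called in every leave-one-out fit. The 5 calls named here ended when HER2R library 2 was left out. All but that of KRT15 also ended when HER2R library 1 was left out, and all but that of SLC7A8 when either CEAR library was. Their highest edgeR adjusted p was 0.0939 to 0.19. Over these fits MUC5AC ran from −10.54 to −5.85 on the log2 scale, NMNAT2 from 5.20 to 6.88, QPCT from 3.35 to 5.85, SLC7A8 from −5.92 to −4.66 and KRT15 from 2.89 to 4.37.

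Among the pathway lists, called growth factor genes were mostly higher in HER2R. Of other receptor tyrosine kinases and ligands 9 of 24 tested members were higher in HER2R and 1 lower (15 and 3 with the block, 1 to 9 calls in the leave-one-out fits), with a median of 0.53. The median over all tested genes was 0.00, with 14.1% called, and a list share near that is no result about the list. Beside FGF2, the insulin-like growth factor gene IGF2 had 9.09 and 5.46 CPM in HER2R, 1.06 and 0.652 in CEAR and 0.23 and 0.546 in MKN45, a difference of 3.09 (edgeR adjusted p = 0.0135). FGFBP1, a carrier protein that releases FGFs from the matrix, had 9.63 and 7.45 CPM in HER2R, 1.13 and 0.831 in CEAR and 9.8 and 2.77 in MKN45, a difference of 3.12 (edgeR adjusted p = 0.0299). FGF18 was low everywhere (0.713 and 0.74 CPM in HER2R, 0.145 and 0.157 in CEAR and 0.779 and 0.478 in MKN45, log2 difference 2.24, edgeR adjusted p = 0.0495). FGFR3 was the exception among the receptors, with 8.15 and 7.45 CPM in HER2R, 28.1 and 42.8 in CEAR and 35.5 and 38.6 in MKN45, lower in HER2R than in both other lines (log2 difference −2.18, SE 0.235, edgeR adjusted p = 0.00649). Of ERBB receptors and EGF-family ligands 3 of 10 tested members were higher in HER2R and 0 lower (4 and 1 with the block, 0 to 2 calls in the leave-one-out fits), with a median of 0.35, and all 3 called were ligands. AREG, amphiregulin, had 22 and 39.5 CPM in HER2R, 5.95 and 8.9 in CEAR and 4.41 and 4.78 in MKN45. It differed by 2.05 (SE 0.338, edgeR adjusted p = 0.0173). HBEGF had 53.4 and 49.5 CPM in HER2R, 30.8 and 21.7 in CEAR and 15.2 and 11.7 in MKN45, a difference of 0.97 (edgeR adjusted p = 0.0353). The HER2R libraries were the highest of the 6 in AREG and HBEGF. TGFA had 54.3 and 75.5 CPM in HER2R, 32.7 and 39.7 in CEAR and 44.3 and 53.9 in MKN45, a difference of 0.84 (edgeR adjusted p = 0.0457). Of MAPK feedback and ETS output genes 6 of 28 tested members were higher in HER2R and 1 lower (17 and 3 with the block, 1 to 9 calls in the leave-one-out fits), with a median of 0.60. The phosphatase gene DUSP5 had 5.45 and 11.8 CPM in HER2R, 1.2 and 0.944 in CEAR and 0.744 and 1.84 in MKN45, a difference of 3.002 (edgeR adjusted p = 0.0234). The feedback inhibitor SPRY2 had 39.9 and 35.9 CPM in HER2R, 8.67 and 7.89 in CEAR and 45.2 and 24.2 in MKN45, a difference of 2.20 (edgeR adjusted p = 0.012). DUSP1 was higher too (log2 difference 1.05, edgeR adjusted p = 0.0208), and EGR1, an early growth response factor, was lower (log2 difference −1.29, edgeR adjusted p = 0.0358). EMP1, a tetraspan membrane protein gene, left MKN45 in opposite directions, with 248.6 and 227 CPM in HER2R, 54.8 and 48.3 in CEAR and 144 and 114 in MKN45. It differed by 2.21 (SE 0.165, edgeR adjusted p = 0.00233). Of SRC-family kinases 2 of 6 tested members were higher in HER2R and 1 lower (2 and 2 with the block, 0 to 3 calls in the leave-one-out fits), with a median of −0.05. LCK, best known from T cells, had 86.6 and 76.1 CPM in HER2R, 22.5 and 14.5 in CEAR and 24.6 and 11.96 in MKN45, a difference of 2.14 (edgeR adjusted p = 0.0194). LYN was higher (log2 difference 0.63, edgeR adjusted p = 0.0309) and SRC lower (log2 difference −0.88, edgeR adjusted p = 0.016) in HER2R. Apart from FGF2 and EMP1, the calls named here ended in leave-one-out fits. FGFR3's ended with either HER2R library left out (highest edgeR adjusted p 0.0665) and AREG's without HER2R library 2 or CEAR library 1 (0.0917). IGF2's, LCK's and SPRY2's ended with either HER2R library or CEAR library 2 left out (0.0727 to 0.101). The calls of FGFBP1, HBEGF, DUSP5, DUSP1, EGR1, LYN and SRC ended with any 1 HER2R or CEAR library left out (0.111 to 0.181), and those of TGFA and FGF18 with any library left out (0.212 and 0.194). Over these fits DUSP5 ran from 2.34 to 3.45 on the log2 scale.

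Called matrix and mesenchymal genes were also mostly higher in HER2R. Of collagens, laminins and integrins 11 of 30 tested members were higher in HER2R and 1 lower (19 and 3 with the block, 0 to 12 calls in the leave-one-out fits), with a median of 0.59. COL12A1, a fibril-associated collagen gene, had 134 and 50.2 CPM in HER2R, 8.22 and 12.4 in CEAR and 1.05 and 0.637 in MKN45, a difference of 3.16 (edgeR adjusted p = 0.0151). COL17A1, a hemidesmosomal collagen gene, had 313 and 450.1 CPM in HER2R, 38.9 and 82 in CEAR and 95.7 and 317 in MKN45, a difference of 2.66 (edgeR adjusted p = 0.0376). MKN45 was lowest in COL12A1 and overlapped HER2R in COL17A1. The integrin gene ITGA2, a collagen receptor subunit, had 245 and 209.9 CPM in HER2R, 59.8 and 38.3 in CEAR and 259 and 126 in MKN45, low in CEAR (log2 difference 2.21, edgeR adjusted p = 0.0184), while ITGAV was lower in HER2R (log2 difference −0.50, edgeR adjusted p = 0.0485). The fibrillar collagen gene COL5A1 was higher in HER2R (log2 difference 2.45, edgeR adjusted p = 0.0256). Of mesenchymal genes and EMT regulators 5 of 13 tested members were higher in HER2R and 0 lower (7 and 1 with the block, 0 to 5 calls in the leave-one-out fits), with a median of 0.88. Of the tested members 38.5% were called. The list named 25 genes, and those not tested were too low, with 7 at 0 counts in all 6 libraries. VIM, vimentin, had 8.28 and 3.95 CPM in HER2R, 0.964 and 0.337 in CEAR and 0.0886 and 0.091 in MKN45. It differed by 3.25 (SE 0.553, edgeR adjusted p = 0.0177). ZEB1, a repressor of epithelial genes, had 6.95 and 4.59 CPM in HER2R, 0.626 and 0.786 in CEAR and 0.177 and 0.568 in MKN45. It differed by 3.02 (SE 0.462, edgeR adjusted p = 0.0144). CYR61, a matricellular protein gene, had 91.2 and 54.7 CPM in HER2R, 21.8 and 12.6 in CEAR and 12.5 and 7.5 in MKN45, a difference of 2.09 (edgeR adjusted p = 0.0235). Vimentin and ZEB1 were highest in HER2R but stayed below 10 CPM. TNC, tenascin C, had no counts in either CEAR library and was also higher in HER2R. Epithelial junctions and keratins were mixed, since 3 of 35 tested members were higher in HER2R and 3 lower, with a median of 0.07. The block gave 11 and 6, and the leave-one-out fits 1 to 6 calls. The 17.1% called was near the 14.1% of all tested genes. CLDN18, a claudin of gastric epithelium, had 2.83 and 2.35 CPM in HER2R, 46.9 and 30.8 in CEAR and 2.09 and 2.59 in MKN45, raised in CEAR alone (log2 difference −3.91, SE 0.292, edgeR adjusted p = 0.00233). CLDN3 went the other way (log2 difference 0.93, edgeR adjusted p = 0.0167). The CLDN18 call held in all 6 leave-one-out fits. Those of COL17A1, COL5A1, ZEB1, TNC and CLDN3 ended with any 1 HER2R or CEAR library left out. Those of ITGA2, VIM and CYR61 ended with either HER2R library or CEAR library 2 left out, that of COL12A1 with HER2R library 1 or either CEAR library left out, and that of ITGAV with any library left out. The highest edgeR adjusted p of each was 0.0616 to 0.224. Over these fits COL12A1 ran from 2.28 to 3.70 on the log2 scale, COL17A1 from 2.21 to 3.29 and VIM from 2.61 to 4.17.

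Called genes of secreted signals were mostly higher in HER2R as well. In the WNT pathway 8 of 34 tested members were higher in HER2R and 1 lower (13 and 5 with the block, 1 to 9 calls in the leave-one-out fits), with a median of 0.58. That is 26.5% called, against 14.1% of all tested genes. WNT7B, a WNT ligand, had 149 and 104 CPM in HER2R, 28.8 and 18.1 in CEAR and 10.03 and 12.7 in MKN45. It differed by 2.43 (SE 0.29, edgeR adjusted p = 0.00785). Both lines lay above MKN45. WNT5B had 1.32 and 2.7 CPM in HER2R, 0.0482 and 0.27 in CEAR and 5.49 and 6.14 in MKN45, a difference of 3.61 (edgeR adjusted p = 0.0245). CEAR lay below both other lines in WNT5B. WNT7A was higher in HER2R as well (log2 difference 1.94, edgeR adjusted p = 0.0298). NOTUM, a secreted inhibitor of WNT proteins, had 1.83 and 1.76 CPM in HER2R, 0 and 0.112 in CEAR and 0.142 and 0.0682 in MKN45, a difference of 4.89 (edgeR adjusted p = 0.0116). The transcription factor TCF7 was lower in HER2R (log2 difference −1.06, edgeR adjusted p = 0.0218). In the BMP and TGF-beta pathways 7 of 31 tested members were higher in HER2R and 0 lower (10 and 5 with the block, 1 to 7 calls in the leave-one-out fits), with a median of 0.07. Under library size alone that median was −0.0033. The share called in these pathways was 22.6%. Beside NOG, the receptor BMPR1B had 1.32 and 1.35 CPM in HER2R, 0 and 0 in CEAR and 0.319 and 0.364 in MKN45, at least 38.4-fold higher in HER2R. The activin subunit gene INHBB had 0.688 and 1.22 CPM in HER2R, 0.12 and 0 in CEAR and 0.23 and 0.114 in MKN45, a difference of 3.97 (edgeR adjusted p = 0.0339). In the NF-kappaB list 7 of 20 tested members were higher in HER2R and 0 lower (9 and 3 with the block, 0 to 5 calls in the leave-one-out fits), with a median of 0.50. CXCL1, a neutrophil chemokine, had 5.25 and 11 CPM in HER2R, 0.94 and 0.607 in CEAR and 3.15 and 2.96 in MKN45. It differed by 3.40 (SE 0.48, edgeR adjusted p = 0.0122). MKN45 lay between the lines. IL8 had 5.78 and 10.7 CPM in HER2R, 2.53 and 0.989 in CEAR and 3.44 and 1.96 in MKN45, a difference of 2.24 (edgeR adjusted p = 0.0417). RELB, a subunit of the factor, had 11.5 and 12.9 CPM in HER2R, 6.26 and 5.19 in CEAR and 6.38 and 7.07 in MKN45, a difference of 1.09 (edgeR adjusted p = 0.0265). The WNT7B call ended without HER2R library 1, and those of NOTUM and BMPR1B with either HER2R library left out. That of CXCL1 ended without HER2R library 2 or CEAR library 2, and that of TCF7 with either HER2R library or CEAR library 2 left out. The calls of WNT5B, WNT7A, INHBB, IL8 and RELB ended with any 1 HER2R or CEAR library left out. In each, the highest edgeR adjusted p was 0.0533 to 0.2. On the log2 scale NOTUM ran from 3.96 to 9.31 over these fits, WNT5B from 2.88 to 5.30, INHBB from 2.95 to 8.42, CXCL1 from 2.77 to 3.83 and IL8 from 1.70 to 3.05.

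Gastric differentiation genes were more often lower in HER2R. Of 18 tested genes 2 were higher in HER2R and 5 lower (2 and 11 with the block, 2 to 8 calls in the leave-one-out fits), and the median was −1.18. SOX2 and FOXA1 (log2 difference 0.96, edgeR adjusted p = 0.0319) were the higher ones. The 38.9% called in this list stands beside 14.1% of all tested genes. Beside CLDN18 and MUC5AC, GATA4, a transcription factor of the foregut, had 21.8 and 18.6 CPM in HER2R, 55.2 and 54.5 in CEAR and 30.2 and 25.5 in MKN45. It differed by −1.44 (SE 0.159, edgeR adjusted p = 0.00699). MUC6, the gland mucin, had 0 and 0 CPM in HER2R, 0.795 and 0.427 in CEAR and 0 and 0.0455 in MKN45, at least 15.8-fold lower in HER2R. Lewis and mucin glycosyltransferases had 2 higher and 5 lower of 27 (25.9% called, 8 and 11 with the block). Their median of −0.17 turned sign in 4 of the alternative fits. Besides FUT9, GCNT1, which builds the core 2 branch of mucin-type O-glycans, left MKN45 in opposite directions, with 5.12 and 6.07 CPM in HER2R, 84.4 and 116 in CEAR and 15 and 19.2 in MKN45. It differed by −4.16 (SE 0.244, edgeR adjusted p = 0.0012). The CEAR libraries were far above the other 4. Its relative GCNT3 had 2.88 and 5.18 CPM in HER2R, 19.2 and 49.1 in CEAR and 17.5 and 7.34 in MKN45, a difference of −3.08 (edgeR adjusted p = 0.0281). A4GNT, which makes the gland-type mucin sugar, had 0 and 0 CPM in HER2R, 1.4 and 4.61 in CEAR and 0.0709 and 0.136 in MKN45, at least 79.97-fold lower in HER2R. GALNT5 (log2 difference 1.18, edgeR adjusted p = 0.0363) and C1GALT1 (log2 difference 0.56, edgeR adjusted p = 0.0483) were higher in HER2R. The intestinal list had 1 higher and 1 lower of 15 (4 and 6 with the block). Its 13.3% called was near the 14.1% of all tested genes. MUC13, a membrane mucin gene low in CEAR, had 40.6 and 45.5 CPM in HER2R, 4.36 and 13.3 in CEAR and 48.6 and 69.3 in MKN45, a difference of 2.28 (edgeR adjusted p = 0.0299). HNF4A was lower in HER2R (log2 difference −0.57, edgeR adjusted p = 0.03). The GCNT1 call held in all 6 leave-one-out fits. That of GATA4 ended without HER2R library 2, those of A4GNT and MUC13 with either HER2R library left out, and that of GCNT3 with either HER2R library or CEAR library 2 left out. The call of C1GALT1 ended with any library left out, and those of FOXA1, MUC6, MUC5AC, GALNT5 and HNF4A with any 1 HER2R or CEAR library left out. The highest edgeR adjusted p of each was 0.0668 to 0.226. On the log2 scale MUC13 ran from 1.69 to 3.30 and GCNT3 from −3.61 to −2.25.

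Genes that make and remodel the GPI anchor were lower in HER2R where called. Of 29 tested members 0 were higher in HER2R and 5 lower, with a median of −0.31. The block gave 0 and 13, and the leave-one-out fits 0 to 4 calls. The 17.2% called was near the 14.1% of all tested genes. PGAP1, an inositol deacylase of the anchor, had 21.3 and 12.9 CPM in HER2R, 39.97 and 38.9 in CEAR and 14.6 and 13.7 in MKN45, raised in CEAR (log2 difference −1.21, SE 0.245, edgeR adjusted p = 0.0283). PIGQ, of the first step of synthesis, differed by −0.82 (edgeR adjusted p = 0.0185). PGAP2, of anchor remodelling, differed by −0.73 (edgeR adjusted p = 0.0302). DPM1, of dolichol-phosphate mannose synthesis, differed by −0.62 (edgeR adjusted p = 0.0364). In DNA replication and G1/S 0 of 27 tested members were higher in HER2R and 7 lower (3 and 11 with the block, 0 to 6 calls in the leave-one-out fits), with a median of −0.27. Here 25.9% were called. GINS2, a subunit of the replicative helicase, had 32.7 and 28.6 CPM in HER2R, 83.9 and 67 in CEAR and 42 and 28.2 in MKN45, a difference of −1.30 (edgeR adjusted p = 0.02). The licensing factor gene CDT1 had 61.7 and 61.5 CPM in HER2R, 138 and 156 in CEAR and 88.6 and 75.2 in MKN45. It differed by −1.26 (SE 0.14, edgeR adjusted p = 0.00703). CEAR was the highest line in both. The clamp loader gene RFC4 (log2 difference −0.92, edgeR adjusted p = 0.0208) and the transcription factor gene E2F1 (log2 difference −0.87, edgeR adjusted p = 0.0495) were lower in HER2R. Of 27 tested G2/M genes 0 were called by edgeR, 0 had an unadjusted p under 0.05, and DESeq2 and limma-voom called 0 as well, while 12 were higher and 2 lower with the block. Their median was 0.18, and it ran from −0.18 to 0.66 over the leave-one-out fits. Replication-dependent histone genes, which share near-identical copies, had 0 higher and 2 lower of 18 (0 and 12 with the block). Their 11.1% called was near the share of all tested genes. In p53 targets 4 of 24 tested members were higher in HER2R and 0 lower, with a median of 0.41. The block gave 13 and 4, and the leave-one-out fits 1 to 4 calls. The 16.7% called was near the 14.1% of all tested genes. The kinase gene PLK2 had 153 and 187 CPM in HER2R, 21.3 and 29.4 in CEAR and 38.4 and 39.3 in MKN45, high in HER2R alone (log2 difference 2.75, SE 0.2, edgeR adjusted p = 0.00229). GDF15, a stress-induced cytokine, had 998 and 1288 CPM in HER2R, 396 and 435 in CEAR and 483 and 437 in MKN45, a difference of 1.46 (edgeR adjusted p = 0.00929). CDKN1A, the cell cycle inhibitor p21, had 162 and 148 CPM in HER2R, 55.7 and 68.4 in CEAR and 184 and 237 in MKN45, low in CEAR (log2 difference 1.32, edgeR adjusted p = 0.0111). The kinase gene PLK3 was higher in HER2R (log2 difference 1.09, edgeR adjusted p = 0.0177). The PLK2 call held in all 6 leave-one-out fits. That of CDT1 ended with either HER2R library left out, those of PGAP1 and GDF15 with HER2R library 2 or either CEAR library left out, and those of GINS2 and CDKN1A with either HER2R library or CEAR library 1 left out. The calls of PIGQ, PGAP2, DPM1, RFC4 and PLK3 ended with any 1 HER2R or CEAR library left out, and that of E2F1 in 5 fits, all but the one without CEAR library 1. The highest edgeR adjusted p of each was 0.0665 to 0.218.

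Called hypoxia, glycolysis and ribosomal protein genes were all higher in HER2R. In hypoxia response and glycolysis 7 of 32 tested members were higher in HER2R and 0 lower (20 and 1 with the block, 0 to 10 calls in the leave-one-out fits), with a median of 0.61. That is 21.9% called, against 14.1% of all tested genes. The glucose transporter gene SLC2A1 had 294 and 534 CPM in HER2R, 129 and 116 in CEAR and 218 and 136 in MKN45. It differed by 1.76 (SE 0.336, edgeR adjusted p = 0.0251). HK1, a hexokinase, had 67.3 and 77.3 CPM in HER2R, 23.1 and 22.4 in CEAR and 55.3 and 39.3 in MKN45. It differed by 1.67 (SE 0.195, edgeR adjusted p = 0.0075). CEAR was the lowest line in HK1. ADM, adrenomedullin (log2 difference 1.76, edgeR adjusted p = 0.0329), and EGLN3, a prolyl hydroxylase gene (log2 difference 1.10, edgeR adjusted p = 0.0216), were higher in HER2R. Of cytosolic ribosomal proteins 11 of 40 tested members were higher in HER2R and 0 lower (19 and 1 with the block, 0 to 8 calls in the leave-one-out fits), with a median of 0.43. Here 27.5% were called. RPL27 had 227 and 258 CPM in HER2R, 125 and 128 in CEAR and 170.2 and 150.0 in MKN45, a difference of 0.94 (edgeR adjusted p = 0.0126). RPS3 had 1982 and 2037 CPM in HER2R, 1085 and 1076 in CEAR and 1373 and 1124 in MKN45, a difference of 0.89 (edgeR adjusted p = 0.032). RPL37 (log2 difference 0.75, edgeR adjusted p = 0.0312) and RPS24 (log2 difference 0.74, edgeR adjusted p = 0.0427) were higher in HER2R too. Sterol and fatty acid synthesis had 0 higher and 1 lower of 28, the called gene being ELOVL6 (log2 difference −1.31, edgeR adjusted p = 0.0167). NRF2 targets had 1 higher and 2 lower of 25. The unfolded protein and amino acid stress response had 3 higher and 2 lower of 21. Death receptor and mitochondrial apoptosis genes had 3 higher and 1 lower of 34, which is 11.8% called against 14.1% of all tested genes. In the stress response ATF3 (log2 difference 1.94, edgeR adjusted p = 0.0215) and DDIT4 (log2 difference 1.59, edgeR adjusted p = 0.0297) were higher in HER2R. CEBPB (log2 difference −1.15, edgeR adjusted p = 0.00929) and PSAT1 (log2 difference −1.11, edgeR adjusted p = 0.0234) were lower. The antiapoptotic gene MCL1 had 929 and 889 CPM in HER2R, 569 and 458 in CEAR and 468 and 351 in MKN45 (log2 difference 0.82, edgeR adjusted p = 0.0432). BCL2L1, of the same family, had 361 and 399.7 CPM in HER2R, 233 and 172 in CEAR and 437 and 385 in MKN45 (log2 difference 0.91, edgeR adjusted p = 0.0282). MCL1 was highest in HER2R, and BCL2L1 was lowest in CEAR. The caspase inhibitor gene XIAP was higher in HER2R (log2 difference 0.68, edgeR adjusted p = 0.0221) and the kinase gene RIPK1 lower (log2 difference −0.82, edgeR adjusted p = 0.013). Retinoic acid metabolism had 2 higher and 1 lower of 18 (16.7% called) and metallothioneins 0 higher and 2 lower of 6 (33.3%). HOX genes had 2 higher and 0 lower of 31 (6.45% called, 8 and 1 with the block). DNA methylation and gene silencing had 1 higher and 0 lower of 23 (4.35%). The Schlafen family had 1 higher and 2 lower of 4 (75.0%) and apolipoprotein L genes 2 higher and 0 lower of 3 (66.7%). Serpins had 1 higher and 2 lower of 13 (23.1%) and cancer-testis antigens 0 higher and 2 lower of 3 (66.7%). All these shares stand beside 14.1% of all tested genes, and a share near that is no result about the list. Several of the lists had few tested members. Among the serpins, SERPINB5 had 175 and 244 CPM in HER2R, 49.9 and 58.8 in CEAR and 93.2 and 113 in MKN45 (log2 difference 1.95, SE 0.209, edgeR adjusted p = 0.00649), a call that held in all 6 leave-one-out fits. The call of HK1 ended without HER2R library 2 and that of CEBPB with either HER2R library left out. Those of SLC2A1 and ADM ended with HER2R library 2 or either CEAR library left out, those of ELOVL6, ATF3 and BCL2L1 with either HER2R library or CEAR library 2 left out, and that of PSAT1 with either HER2R library or CEAR library 1 left out. The calls of EGLN3, the 4 ribosomal genes named, DDIT4, MCL1, XIAP and RIPK1 ended with any 1 HER2R or CEAR library left out. The highest edgeR adjusted p of each was 0.0665 to 0.211. ADM ran from 1.13 to 2.19 on the log2 scale.

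**Figure D3:**
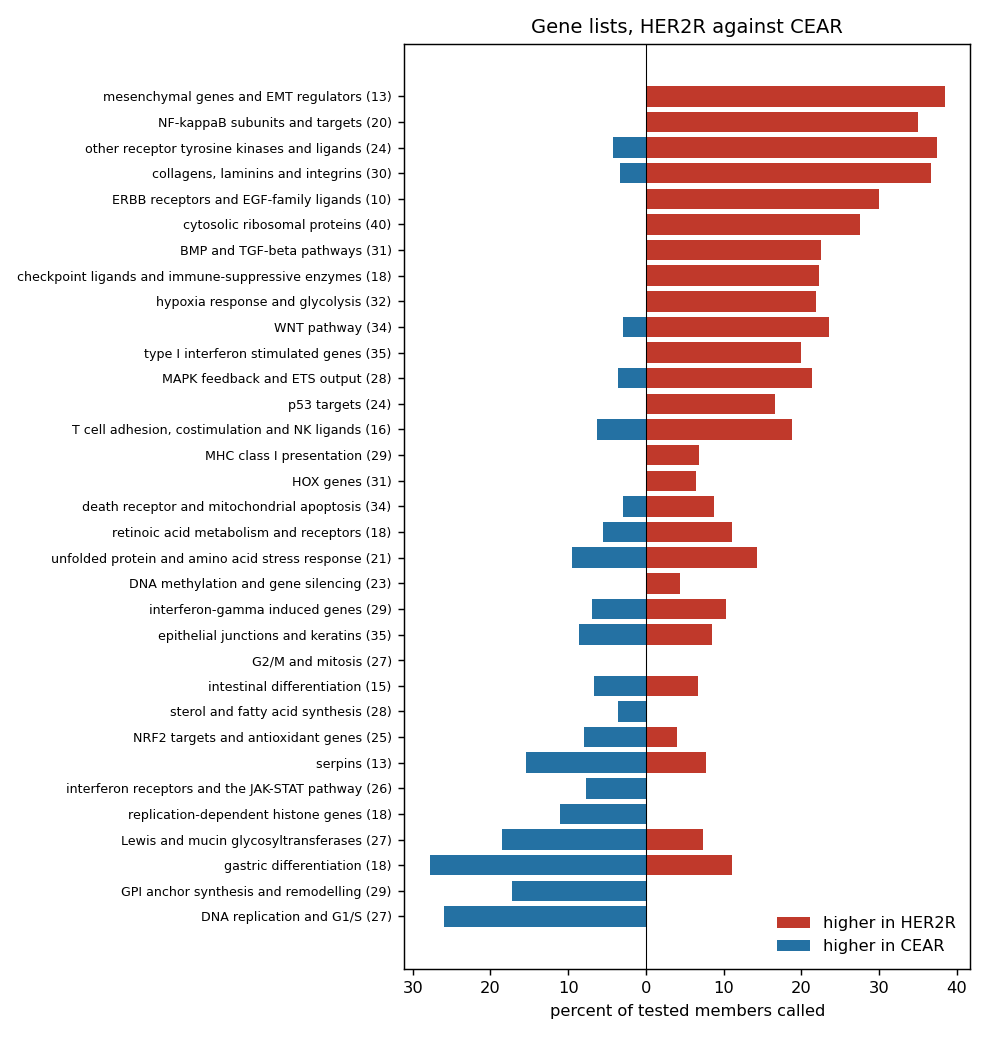
Share of tested members called between HER2R and CEAR in each list with 10 or more tested members (number tested in brackets), with genes higher in HER2R to the right in red and genes higher in CEAR to the left in blue. The longest bars are those of receptor tyrosine kinases, matrix and mesenchymal genes to the right and gastric differentiation and DNA replication to the left, against 7.32% and 6.75% of all tested genes.

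The differences were not spread evenly over the genome, with 6.86% of tested genes called on chromosome 7 and 38.4% on chromosome 16. The tested genes were cut by GENCODE 29 position (GRCh38) into windows of 10 Mb, of which 230 held 20 genes or more, and the median log2 difference was over 0.3 in size in 64 of them, 33 higher in HER2R and 31 lower. The windows were chosen after their values were seen and carry no test. They were picked by the same differences that make the calls. More calls inside them, with the sign of the window, follow in part from that choice. These 64 windows held 27.2% of the 12289 windowed genes but 49.3% of the 1805 windowed calls, and 832 of the 890 calls in them had the sign of their window. Within them 26.7% of genes were called, outside them 10.2%. Chromosome 16 carried 234 calls, which is 11.9% of the calls with a position against 4.60% of the tested genes with one. The plot of window medians by chromosome shows chromosome 16 below the line and the start of chromosome 2 and a stretch of X above it.

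**Figure D4:**
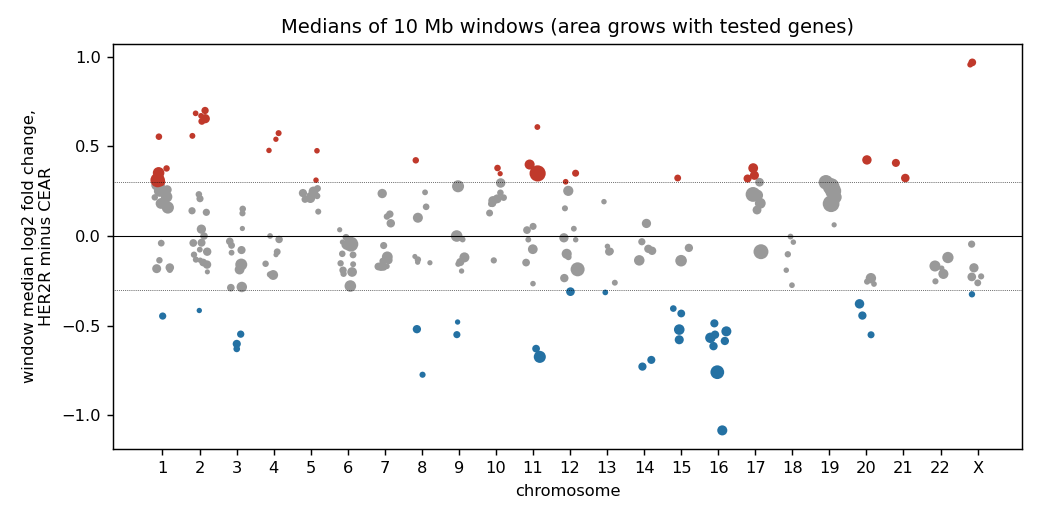
Median log2 fold change, HER2R minus CEAR, of the tested genes in each of 230 windows of 10 Mb, by chromosome, with point area growing with the number of genes. Red and blue points exceed 0.3 in either direction (dotted lines). The lowest point is on chromosome 16, at −1.09, and the highest is on X, at 0.97.

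The stretches differed in which line left MKN45. From 10 to 80 Mb of chromosome 16, 385 tested genes had a median of −0.57, with 2 called higher and 112 lower. Against MKN45 the median was −0.56 in HER2R and 0.03 in CEAR, so there HER2R was the line that lay lower. From 80 to 90 Mb of the same chromosome the median was −1.09 over 78 genes, 1 called higher and 50 lower, with −0.12 in HER2R and 0.99 in CEAR. In that window CEAR was the line that lay higher, at 0.99 in library 1 and 0.95 in library 2. CDT1, GINS2 and IRF8 lie in this window. The first 10 Mb had −0.76 over 145 genes, with HER2R at −0.23 and CEAR at 0.54. From 0 to 50 Mb of chromosome 2 the median was 0.67 over 193 genes, 75 called higher and 0 lower, with 0.73 in HER2R and 0.04 in CEAR. EPCAM lies in that stretch. From 100 to 120 Mb of X the median was 0.96 over 72 genes, 39 called higher and 1 lower, with −0.13 in HER2R and −1.04 in CEAR. The end of chromosome 14 from 90 Mb had −0.72 over 102 genes (−0.69 in HER2R and 0.00 in CEAR) and chromosome 20 from 40 Mb had −0.46 over 160 (−0.52 and 0.03). The first 20 Mb of chromosome 11 had −0.66 over 158 genes (−0.21 and 0.50) and the first 40 Mb of chromosome 3 had −0.57 over 141 (−0.22 and 0.35). In all 9 stretches the libraries of the line farther from MKN45 lay closer to each other than to either MKN45 library. DNA copy number was not analysed here.

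**Figure D5:**
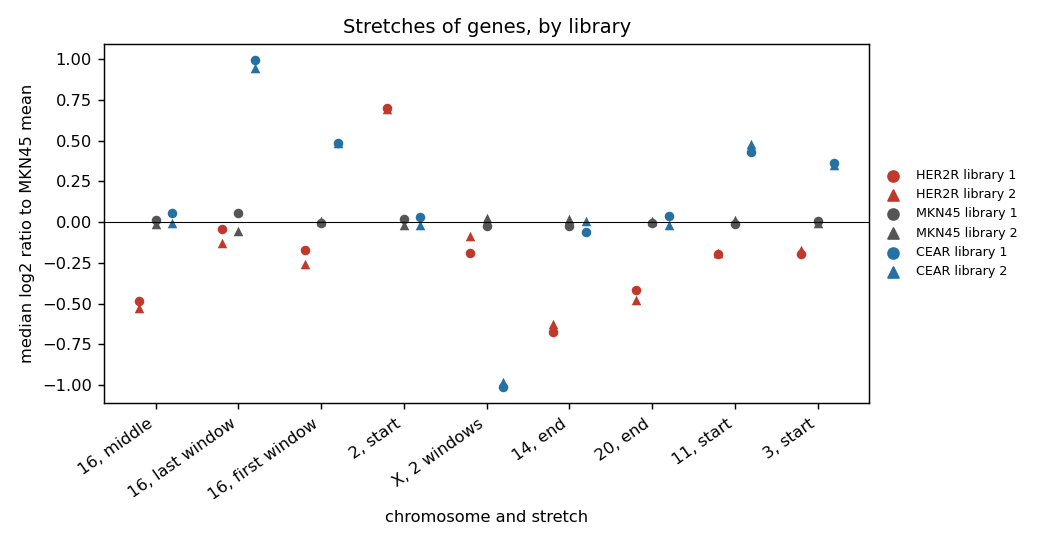
Median log2 ratio to the MKN45 mean for the genes of 9 stretches, for each library (red HER2R, grey MKN45, blue CEAR; circles library 1, triangles library 2). In the middle of chromosome 16 the HER2R points lie at −0.49 and −0.53 while CEAR is near 0, and in the last window of chromosome 16 the CEAR points lie at 0.99 and 0.95 while HER2R is at −0.04 and −0.13.

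Some called list members lie in such windows and have their sign. Of all 2105 calls, 832 (39.5%) did, and no list was tested against that share. Only the windows with a median over 0.3 in size are counted here. Among called list genes, such windows of the same sign held 3 of 5 in the GPI list, 3 of 7 in G1/S and 2 of 2 metallothioneins. They also held 2 of 2 class I presentation genes, 4 of 12 in the matrix list, 3 of 7 in the gastric list and 3 of 5 in the mesenchymal list. They held 0 of 10 receptor tyrosine kinase and ligand genes, 0 of 3 ERBB genes and 0 of 7 type I interferon stimulated genes. In the NF-kappaB, hypoxia, MAPK and mucin glycosyltransferase lists they held 1 of 7 each. Members in windows with a smaller median were not counted, whatever its sign. The sign is that of HER2R minus CEAR, so a gene and its window can depart in different lines. MT1E departed in CEAR alone, while its window (chromosome 16, 50 to 60 Mb) lay at −0.56 in HER2R and 0.02 in CEAR against MKN45. WARS departed in HER2R alone, and its window (chromosome 14, 100 to 110 Mb) lay at −0.72 and 0.03. The part of the window shift in the calls of single genes was not tested.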

How the data were processed

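The 6 libraries of 3 lines are stranded total RNA libraries with ribosomal RNA depleted, per the labels' protocols. What the authors deposited are raw counts for each gene symbol. The submitters' processing notes name GRCh38 and limma. The aligner, the counter, its use of strand and the annotation are not stated in any source used here. RNA45S5, the ribosomal RNA precursor, held 8.88% to 10.7% of counts.

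edgeR 4.0.16 (R 4.3.3) was fitted by quasi-likelihood to all 6 libraries with 1 term per line and TMM factors. filterByExpr kept 14958 of 29744 symbols, and p-values were adjusted by Benjamini-Hochberg over them. The SE is the absolute log2 difference divided by the root of F. Genes were sorted by which line passed against MKN45. For a line at 0 counts the fold is a lower bound against 3 counts summed over its libraries. For 1 to 3 counts it is a ratio of summed counts with a 95% interval. Both cover counting error only.

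The members, 46 gene lists and the naming rule were chosen with earlier results of these data known. Antigens and interferon-gamma pathway genes were named whatever their values. To them were added the largest called differences at 5 CPM or more in each class of the sort (6 per direction where 1 line departs alone, up to 12 opposite, 3 per direction otherwise) and at most 4 called genes per direction in each list. COL1A1, HLA-DMA, CIITA, CD3D, CD2, C1orf110 and the windows were picked after their values were seen. Of 1041 list symbols 1032 matched directly, 6 by synonym and 3 not. Promoter windows come from RefSeq on GRCh38.p14.

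Library 2 minus library 1 correlated between lines over all tested genes (r = 0.378 for MKN45 with HER2R, 0.545 for MKN45 with CEAR, 0.355 for HER2R with CEAR). Component 3 of a principal component analysis (17.9%) split the numbers. A replicate block on the number is therefore given beside many of the results it changes, and this pairing comes from the data and not from the labels. Libraries of one line were no copies, with a chi-square over its degrees of freedom of 60.7 in HER2R and 90.0 in CEAR. The alternatives run were this block, RLE factors, library size alone, other filters, DESeq2 1.42.0, limma-voom (limma 3.58.1), only the 4 compared libraries, a 1.5-fold threshold test, and omission of each library in turn, in which a line's lone library is assumed to vary like the rest. In simulated counts for HER2R against CEAR (14958 genes, 100 altered per fold), edgeR recovered 54% at 2-fold and 100% at 4-fold, with 4.94% false calls. Counts were drawn from a negative binomial distribution with the fit's dispersion, and no further spread of single genes was added. Only genes with higher expected counts were altered, and no effect of the library number was simulated. These rates therefore do not cover genes near the floor or data with such an effect or such a spread.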

Additional observations from a re-analysis of the deposited data

Results flagged for a closer look

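A gene is given here where HER2R and CEAR both passed the edgeR test against MKN45 with opposite signs in the fit to all 6 libraries and also differed from each other, among the 12 largest. ALDH1A2 was at least 3860-fold higher in HER2R than in CEAR, and CAPN6, from 2 counts in HER2R, 509-fold lower. The log2 difference, HER2R minus CEAR, was −7.31 in FUT9, −5.03 in SUCNR1 and −4.48 in SLCO2A1. It was 6.93 in PRKAA2, 6.87 in HLA-DMB, 5.67 in NRP2, 5.26 in FGF2, 4.69 in ELOVL5, 4.53 in ADD2 and 4.36 in SOX2. The comparisons with MKN45 share its 2 libraries.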

How the results depend on the processing

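No called gene that the text names changed sign between HER2R and CEAR under the alternatives run. Of the genes not called, 3 did when 1 library was left out, with ranges of −2.02 to 1.39 in CEACAM6, −0.39 to 0.14 in ERBB2 and −0.12 to 0.44 in B2M. With the replicate block 5717 genes were called, with 2233 in which HER2R departs from MKN45, 1434 in which CEAR departs, 314 opposite and 506 the same way. Among genes of the naming rule the block added the calls of HLA-B, HLA-C, IRF1 and CD274 and ended none. COL1A1, which was outside that rule, was also called with the block. DESeq2 added 1 call among genes of the rule, and the 4 compared libraries with the block added 6. DESeq2 called 3432 (1270 HER2R departs, 815 CEAR departs, 97 opposite, 166 same way), the 4 compared libraries with the block 6043, and the test against a fold of 1.5 435 (140, 101, 8, 12 and 174 in neither). Without the filter on low counts 45 genes moved the same way, and by level alone HER2R departed in 334. Scaling by library size alone moved the median of all genes by −0.07 and called 931 genes higher in HER2R and 1296 lower, 41.8% higher against 52.0% in the main fit. The medians of the lists of CEACAM genes, SRC kinases, BMP and TGF-beta, junctions, intestinal genes, glycosyltransferases, sterol synthesis, NRF2, unfolded protein response, G2/M, serpins, epithelial and neuroendocrine markers turned sign in at least 1 setting. RLE factors (2079), limma-voom (1923), a filter at 1 CPM (2104), no filter (1613) and the 4 libraries alone (1868) stayed within 1.5 times the 2105 calls. Leaving out 1 library gave 102 to 1856 calls, with 32 to 258 genes in which HER2R departs, 43 to 161 in which CEAR departs (CEAR the more frequent with either HER2R library left out), 5 to 16 opposite, 6 to 26 the same way and 14 to 1469 in neither. Fewer libraries were fitted there, and the cause of the other shifts was not tested. Depth limits the genes near 1 count (0.0177 to 0.0255 CPM), where folds are bounds or wide intervals, and 2 libraries per line limit all p-values.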

Other observations

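At 5 CPM or more in one line and at most 3 counts over both libraries of the other, 14 genes were close to on in one line and off in the other, 8 of them off in CEAR and 6 off in HER2R. Of the 8, 3 were at 5 CPM or more in MKN45 too, and of the 6, 2 were. Among them C1orf110, an open reading frame outside the naming rule, had 10.1 and 6.22 CPM in HER2R, 0 and 0.0225 in CEAR and 0.0177 and 0.0227 in MKN45, and from 1 count in CEAR it was 703-fold higher in HER2R (95% counting interval 126 to 27798).

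Called genes were found at every level of expression. Of the 3740 tested genes lowest in mean level, 9.57% were called, with a median size of 3.19 on the log2 scale, against 15.4%, 15.97% and 15.3% in the next 3 groups of that size in rising order, with median sizes of 1.30, 0.84 and 0.77.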
